A study of Mus musculus with 3 samples.

Results

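The genes described here are 10 stromal niche factors and receptors, chosen by name from the 27179 genes of a messenger RNA table: Cxcl12, Kitl, Csf1, Tnfrsf11b, Grem1, Vcam1, Pdgfra, Pdgfrb, Lepr and Prrx1. All 10 were in the table. They were measured in mouse bone marrow stromal cells of wild-type genotype, grown at 3% oxygen and given extracellular vesicles, the small membrane particles that cells release, for 3 days. For Ocn-EV, CAGS-Snorkel mice crossed with Ocn-Cre gave the vesicles, and this driver is switched on in mature osteoblasts. For Prx1-EV, the cross was with Prx1-Cre, which marks limb mesenchyme and the cells derived from it. The control, All-EV, was prepared from mice of wild-type genotype. Ocn-EV and Prx1-EV are called the tagged preparations below. Every mouse was on a C57BL/6N background and 6 months old, and each preparation pooled the marrow plasma of 5 mice, 2 male and 3 female. An antibody to the HA tag is named as the capture step for vesicles of all groups, and the sources used here leave unstated how it bound those of wild-type mice. Each group is 1 library, so no difference below has a replicate check, no p-value is given, and "higher" and "lower" compare single libraries.

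Bone marrow stromal cells hold blood stem cells and their progeny in place and feed them. They do so through secreted factors such as the chemokine CXCL12 and stem cell factor, and through adhesion molecules on their surface. The same cells make factors that start or restrain the formation of bone-resorbing osteoclasts. They are commonly recognised by receptors for platelet-derived growth factor and leptin. PRRX1 is a homeodomain transcription factor of limb mesenchyme, and the Prx1-Cre driver is named after it.

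The libraries held 14233978 (Ocn-EV), 17269204 (Prx1-EV) and 15558165 (All-EV) gene-assigned reads. The cultures carried stromal and macrophage transcripts in all 3 libraries. A list of 9 stromal fibroblast markers took 0.813%, 0.566% and 0.181% of reads in Ocn-EV, Prx1-EV and All-EV, and 14 macrophage markers took 1.00%, 0.859% and 1.37%. Of the stromal markers, Lum had no read in any library and Dcn had 3, 3 and 23 reads, so the stromal reads came from Col1a1, Fn1 and the other matrix genes. Of the macrophage reads, Lyz2 alone held 49971 in Ocn-EV, 46480 in Prx1-EV and 123980 in All-EV. The median log2 ratio to All-EV (defined below) over the 14 macrophage markers was 0.36 for Ocn-EV and 0.26 for Prx1-EV. Fewer cells of a type and less RNA per cell cannot be told apart in bulk RNA.

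Most of the niche genes with a clear difference were higher with both tagged preparations than with All-EV. With Ocn-EV, Tnfrsf11b, Pdgfrb, Prrx1 and Cxcl12 passed 2-fold, and Csf1 lay just under 2-fold. With Prx1-EV, Tnfrsf11b and Pdgfrb passed 2-fold. Grem1 went the other way and was about as much lower with either preparation. Kitl, Vcam1 and Lepr did not differ beyond counting error in either comparison. Pdgfra was high with Ocn-EV alone among the 3 libraries.

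**Figure D1:**
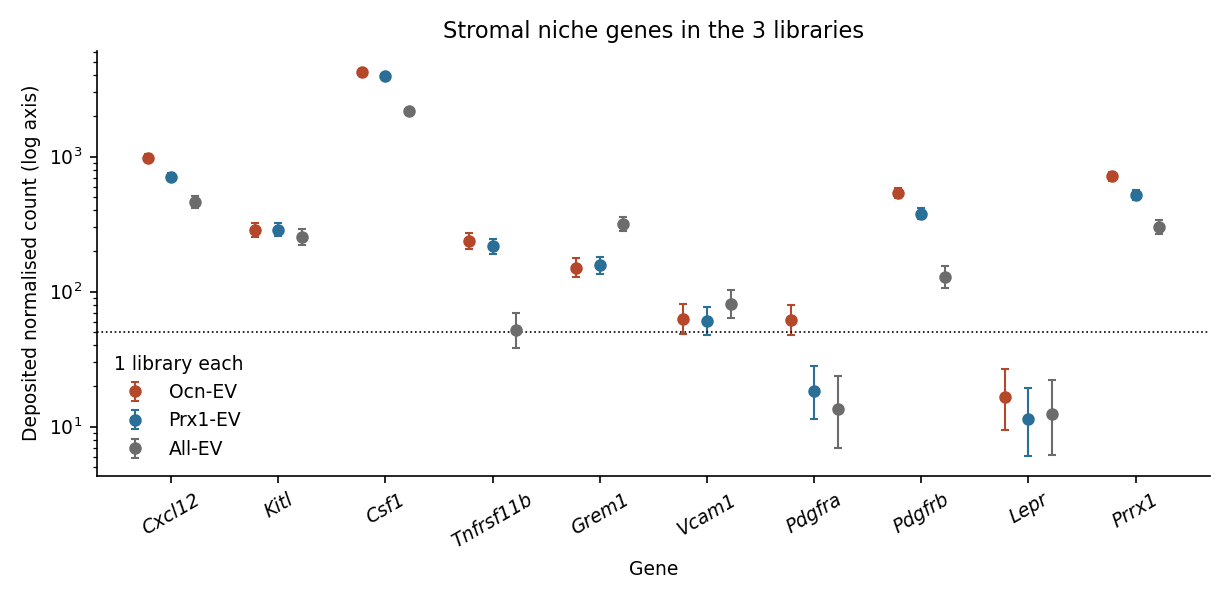
Deposited normalised count of each of the 10 genes (log axis) in the Ocn-EV, Prx1-EV and All-EV libraries, 1 library each; bars are 95% counting intervals and the dotted line is the mean level of 50 used as expression filter. Grem1 is the gene whose All-EV point, at 319, stands clear above the points at 151 (Ocn-EV) and 157 (Prx1-EV).

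Levels below are the deposited normalised counts, which share 1 scale across libraries but depend on transcript length. A log2 ratio is log2 of (level + 1) over (level + 1). The range in brackets after it is the 95% interval of the ratio of levels, exact and conditional on the reads, and covers counting error only. Of the 10 genes, 8 had a mean level of at least 50 and were above 50 in every library. Pdgfra and Lepr were not, and are given apart from the counts.

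Among the secreted factors, Cxcl12 encodes the chemokine that keeps blood stem cells in the marrow. The gene lies at chr6:117168535-117181368 on the plus strand of GRCm38.p6. It stood at 976 in Ocn-EV, 709 in Prx1-EV and 463 in All-EV. The 3 counting intervals did not overlap, with Ocn-EV highest and All-EV lowest. Cxcl12 was 2.11-fold higher with Ocn-EV than with All-EV (log2 1.08, 0.91 to 1.25) and 1.53-fold higher with Prx1-EV (0.61, 0.44 to 0.79). With a trend on length and GC content removed, the Ocn-EV value was 0.92, short of 2-fold. Kitl, the gene of stem cell factor (chr10:100015615-100100416, plus strand), stood at 289 in Ocn-EV, 288 in Prx1-EV and 256 in All-EV. These intervals overlapped, and the log2 ratios to All-EV were 0.18 (−0.08 to 0.44) for Ocn-EV and 0.17 (−0.08 to 0.42) for Prx1-EV.

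Csf1 (chr3:107741048-107760469, minus strand) encodes the macrophage growth factor that osteoclast precursors also need. Its level was 4253 in Ocn-EV, 3971 in Prx1-EV and 2178 in All-EV. The intervals of both tagged libraries lay above that of All-EV. With 1925 or more reads per library it had the narrowest intervals, at log2 0.96 (0.89 to 1.04) for Ocn-EV and 0.87 (0.79 to 0.94) for Prx1-EV over All-EV. Tnfrsf11b (chr15:54250619-54278484, minus strand) encodes osteoprotegerin, the secreted decoy receptor that binds the osteoclast factor RANKL. It stood at 238 in Ocn-EV, 217 in Prx1-EV and 52.1 in All-EV. It had the largest ratio to All-EV among the 8 genes in both comparisons, at 4.57-fold for Ocn-EV (log2 2.17, 1.73 to 2.68) and 4.17-fold for Prx1-EV (2.04, 1.60 to 2.55). All-EV rested on 46 reads of this gene. For Prx1-EV its ratio lay above those of 99.2% of all genes at the filter.

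Grem1 (chr2:113748675-113758648, minus strand) encodes gremlin, a secreted antagonist that binds bone morphogenetic proteins (BMPs). It stood at 151 in Ocn-EV, 157 in Prx1-EV and 319 in All-EV. The Ocn-EV and Prx1-EV intervals overlapped and both lay below the All-EV interval. Grem1 was 2.11-fold lower with Ocn-EV (log2 −1.07, −1.38 to −0.78) and 2.03-fold lower with Prx1-EV (−1.02, −1.30 to −0.75). Of all genes at the filter, 3.38% (Ocn-EV) and 3.52% (Prx1-EV) had a lower ratio to All-EV. With libraries set to equal totals its log2 ratios were −0.82 and −0.79, short of 2-fold.

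The upstream windows of Cxcl12 and Grem1 are shown because these secreted factors differed in opposite directions and both windows are free of annotated exons. Each holds the 250 bases before the RefSeq start on GRCm38.p6, read 5′ to 3′ along the gene. The Cxcl12 window is chr6:117168285-117168534 on the plus strand and the Grem1 window chr2:113758649-113758898 on the minus strand. Capitals mark the GC box letters GGGCGG on either strand, with overlapping matches counted.
Cxcl12: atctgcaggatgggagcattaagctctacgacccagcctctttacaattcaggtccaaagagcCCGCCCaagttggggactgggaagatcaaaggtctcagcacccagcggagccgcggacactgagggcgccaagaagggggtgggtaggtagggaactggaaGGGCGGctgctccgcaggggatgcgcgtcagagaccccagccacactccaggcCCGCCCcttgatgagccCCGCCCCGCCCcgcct
Grem1: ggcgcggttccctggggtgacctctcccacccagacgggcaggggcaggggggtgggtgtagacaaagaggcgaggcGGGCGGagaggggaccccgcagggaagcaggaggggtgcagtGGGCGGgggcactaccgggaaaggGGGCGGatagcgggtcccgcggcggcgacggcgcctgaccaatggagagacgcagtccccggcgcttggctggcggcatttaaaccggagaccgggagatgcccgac
The Cxcl12 window held 5 GC box matches and the Grem1 window 3, and 64.4% and 72.0% of their bases were G or C, against a median of 52.4% over all 32851 windows in the table. Of all windows, 32.7% held a GC box. Neither window held the TATA box letters TATAAA on either strand, which 12.4% of all windows held. Of the 10 genes, 7 had 8 windows between them, and Vcam1, Pdgfrb and Tnfrsf11b had no entry. A GC box stood in 5 of the 8 windows, those of Cxcl12, Grem1, Csf1, Kitl and 1 of the pair of Lepr windows. Only 4 of the 8 windows were free of annotated exons. Exon bases made up 191 of the 250 bases in the Kitl window and 60 in the Prrx1 window. In the Lepr window with the GC box they made up all 250. TATAAA stood in the Kitl window alone. The homeodomain core TAATTA stood in the Prrx1 window alone, against 4.84% of all windows. These matches are letters in a window and were not tested for binding.

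The surface molecule encoded by Vcam1 (chr3:116110020-116129688, minus strand) anchors blood cells through an integrin receptor. Its level was 63.2 in Ocn-EV, 61.1 in Prx1-EV and 81.5 in All-EV, with overlapping intervals. Its log2 ratios to All-EV were −0.36 (−0.88 to 0.14) for Ocn-EV and −0.41 (−0.91 to 0.08) for Prx1-EV. Lepr (chr4:101717137-101815352, plus strand), the gene of the leptin receptor that marks a major class of marrow stromal cells in the mouse, had 16 reads in Ocn-EV, 13 in Prx1-EV and 11 in All-EV. At this depth no difference in Lepr was detectable, with log2 ratios to All-EV of 0.39 (−0.79 to 1.67) for Ocn-EV and −0.12 (−1.41 to 1.17) for Prx1-EV. The Prx1-EV value turned to 0.08 with libraries set to equal totals.

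Pdgfra (chr5:75151322-75198206, plus strand) and Pdgfrb (chr18:61045127-61085067, plus strand) encode the alpha and beta receptors for platelet-derived growth factor (PDGF). Pdgfrb stood at 539 in Ocn-EV, 379 in Prx1-EV and 129 in All-EV, with 3 intervals that did not overlap. It was 4.18-fold higher with Ocn-EV than with All-EV (log2 2.06, 1.77 to 2.37) and 2.93-fold higher with Prx1-EV (1.55, 1.25 to 1.86). These ratios lay above those of 98.8% and 98.2% of all genes. Pdgfra was scarce, at 62.1 in Ocn-EV, 18.3 in Prx1-EV and 13.6 in All-EV, or 60, 21 and 12 reads. The Prx1-EV and All-EV intervals overlapped, and the Ocn-EV interval lay above both. Pdgfra was 4.57-fold higher with Ocn-EV than with All-EV (log2 2.11, 1.28 to 3.22), while Prx1-EV over All-EV gave log2 0.41 (−0.66 to 1.59). At a mean level of at least 10, a filter that takes in Pdgfra, 8.58% and 7.19% of 13611 genes were 2-fold higher with Ocn-EV and Prx1-EV than with All-EV. Exons of Pdgfra overlap those of 2 genes on the other strand and of 1 small gene on its own, and exons of Vcam1 overlap those of an antisense gene. The sources used here do not give the strand setting of the counting, so reads of those stretches cannot be assigned with certainty. No exon of the other 8 genes overlapped another annotated gene.

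The transcription factor gene Prrx1 (chr1:163245119-163315145, minus strand) stood at 715 in Ocn-EV, 522 in Prx1-EV and 303 in All-EV. Its 3 intervals did not overlap and fell in the same order as those of Cxcl12 and Pdgfrb. It was 2.36-fold higher with Ocn-EV than with All-EV (log2 1.24, 1.03 to 1.45) and 1.72-fold higher with Prx1-EV (0.78, 0.57 to 1.00).

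**Figure D2:**
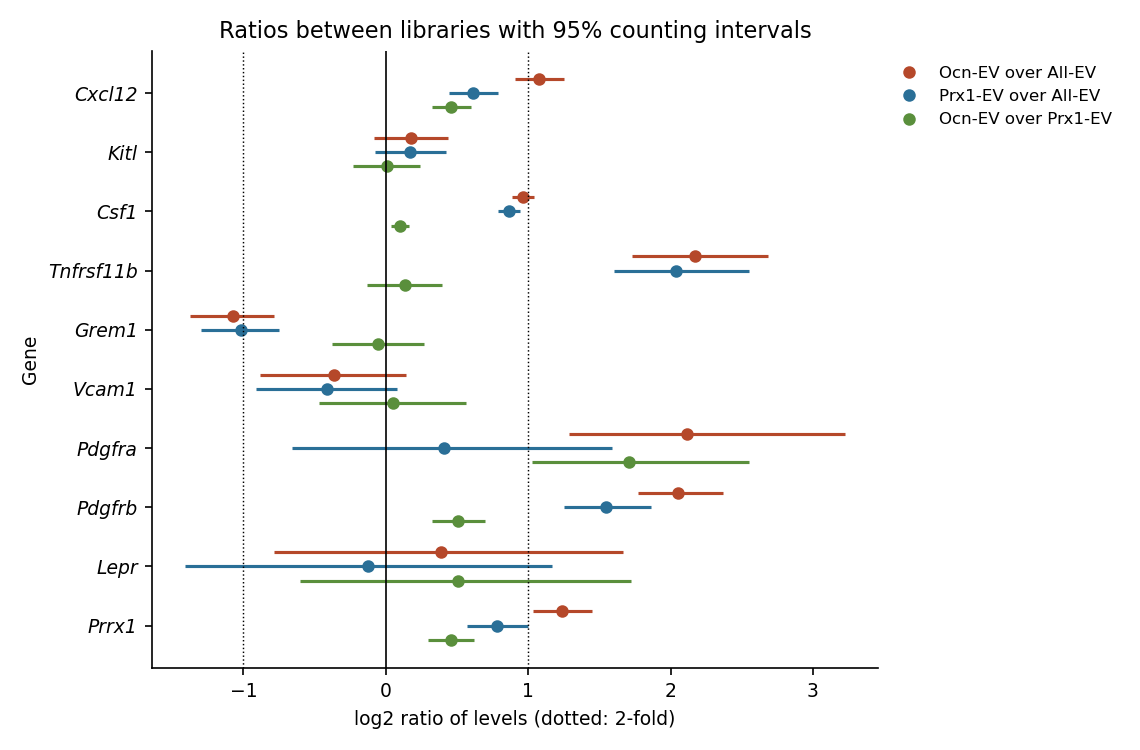
Log2 ratios of levels for the 10 genes (points) with 95% counting intervals (lines) for Ocn-EV over All-EV, Prx1-EV over All-EV and Ocn-EV over Prx1-EV; dotted lines mark 2-fold. Tnfrsf11b and Pdgfrb lie beyond 1 in both comparisons with All-EV, Grem1 near −1, and the intervals of Kitl, Vcam1 and Lepr cross 0 in all 3 comparisons.

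Counted over the 8 genes at the filter, 4 passed 2-fold above All-EV with Ocn-EV and 1 was lower. Among all 11067 genes at the filter, 6.27% were 2-fold higher and 4.20% lower in that comparison. The median log2 ratio was 1.02 over the 8 genes and −0.02 over all genes. With Prx1-EV, 2 of the 8 were 2-fold higher than with All-EV and 1 was lower, against 5.12% and 3.66% of all genes, and the medians were 0.70 and 0.00. At 1.5-fold, 5 of the 8 were higher with each preparation than with All-EV, against 13.8% of all genes for Ocn-EV and 12.7% for Prx1-EV. An exact binomial test on the reads, which sets library against library and not condition against condition, called 64.9%, 64.3% and 26.0% of all genes for Ocn-EV over All-EV, Prx1-EV over All-EV and Ocn-EV over Prx1-EV. By it 5 of the 8 genes were higher and 1 lower with Ocn-EV than with All-EV (30.9% and 33.9% of all genes), and likewise with Prx1-EV (31.7% and 32.6%). In Ocn-EV over Prx1-EV, 4 were higher and 0 lower by it (11.2% and 14.8%), and 0 were 1.5-fold higher (2.24%). The genes were picked with earlier results of these data known, and both comparisons use the same All-EV library, so the counts are a description. Scaling libraries to equal totals shifts the median of all genes by 0.26 (Ocn-EV) and 0.22 (Prx1-EV). After it, 5 of the 8 genes were higher and 0 lower for Ocn-EV, against 10.06% and 2.241% of all genes. For Prx1-EV, 4 were higher and 0 lower, against 8.205% and 2.096% of all genes. Csf1 and Prrx1 were past 2-fold in both comparisons and Grem1 in neither. The share of higher genes among all genes at least 2-fold apart moved likewise, to 81.8% against 59.9% as deposited for Ocn-EV, and to 79.6% against 58.3% for Prx1-EV.

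**Figure D3:**
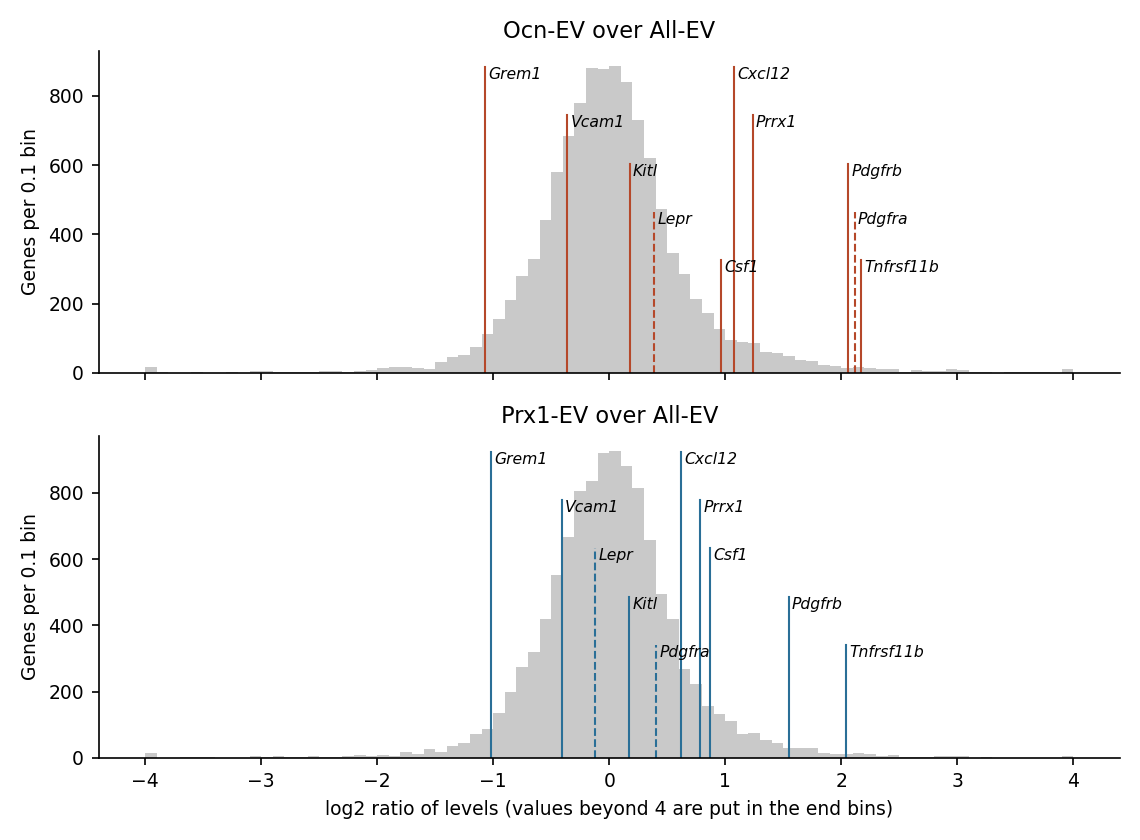
Distribution of log2 ratios over the 11067 genes at the filter (grey, genes per bin of 0.1) for Ocn-EV over All-EV and Prx1-EV over All-EV, with the 10 genes as vertical lines of arbitrary height, dashed for Pdgfra and Lepr, which were under the filter. Tnfrsf11b and Pdgfrb lie in the right tail of both panels and Grem1 in the left.

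Ratios between genes of 1 library do not depend on how libraries are scaled. Per read of Prrx1, Cxcl12 had 1.37 reads in Ocn-EV (1.24 to 1.51), 1.36 in Prx1-EV (1.22 to 1.51) and 1.53 in All-EV (1.31 to 1.79), with overlapping intervals. Pdgfrb had 0.754 (0.672 to 0.846), 0.726 (0.640 to 0.823) and 0.425 (0.339 to 0.532) reads per read of Prrx1 in Ocn-EV, Prx1-EV and All-EV. Pdgfrb thus stood higher relative to Prrx1 in both tagged libraries than in All-EV. Tnfrsf11b also did, at 0.333, 0.416 and 0.172. Grem1 had 0.211 (0.176 to 0.253) reads per read of Prrx1 in Ocn-EV, 0.301 (0.253 to 0.356) in Prx1-EV and 1.05 (0.887 to 1.25) in All-EV. Its ratio was lowest in Ocn-EV and highest in All-EV. Kitl (0.404, 0.552 and 0.843) and Vcam1 (0.0883, 0.117 and 0.269) were lower relative to Prrx1 in Ocn-EV and Prx1-EV than in All-EV. Unlike Grem1, their own levels did not differ from All-EV beyond counting error. Prrx1 itself was 2.36-fold higher with Ocn-EV and 1.72-fold higher with Prx1-EV. Csf1 had 5.94, 7.61 and 7.18 reads per read of Prrx1 in Ocn-EV, Prx1-EV and All-EV.

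**Figure D4:**
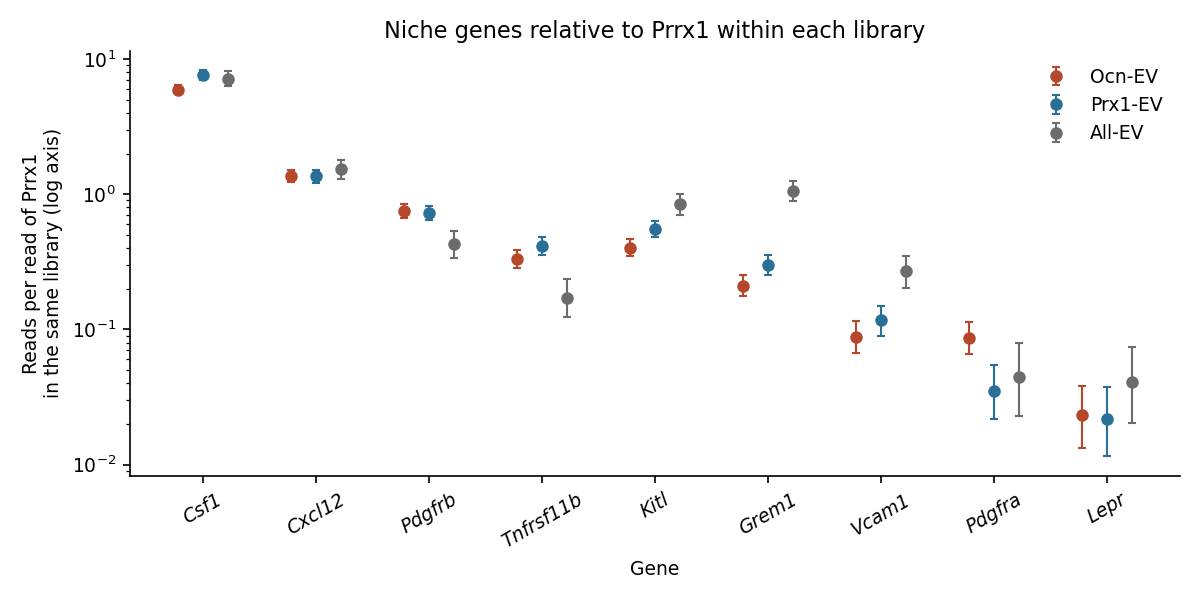
Reads of 9 niche genes per read of Prrx1 in the same library (log axis) for Ocn-EV, Prx1-EV and All-EV, with 95% counting intervals. Cxcl12 stays between 1.36 and 1.53, while Grem1 lies at 0.211, 0.301 and 1.05.

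Between the tagged preparations, Prrx1, Cxcl12 and Pdgfrb were higher with Ocn-EV than with Prx1-EV beyond counting error, all by less than 1.5-fold. The log2 ratios of Ocn-EV over Prx1-EV were 0.46 (0.30 to 0.62) for Prrx1, 0.46 (0.32 to 0.60) for Cxcl12 and 0.51 (0.32 to 0.70) for Pdgfrb. Csf1 differed little, at 0.10 (0.04 to 0.16). The intervals of Kitl, Vcam1, Tnfrsf11b, Grem1 and Lepr held 0. Pdgfra had the largest ratio of the 10, at 3.39-fold (log2 1.71, 1.02 to 2.55). Of the 8 genes at the filter, 0 were 2-fold apart in either direction, against 0.325% of all genes higher and 0.190% lower. At a mean level of at least 10, 2.06% of 13611 genes were 2-fold higher with Ocn-EV than with Prx1-EV. Per read of Pdgfrb, Pdgfra had 0.115 reads in Ocn-EV (0.0866 to 0.151), 0.0484 in Prx1-EV (0.0296 to 0.0749) and 0.105 in All-EV (0.0528 to 0.191).

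Levels of different genes were compared per length, as reads per base of the longest annotated transcript scaled to the same sum in every library. By this measure Csf1 stood at 192 in Ocn-EV, 177 in Prx1-EV and 74.1 in All-EV, above 95.1% of the detected genes in Ocn-EV. Cxcl12 followed at 32.8, 23.4 and 11.7 per length. In Ocn-EV the order then ran Prrx1 (20.7), Pdgfrb (18.8), Tnfrsf11b (16.0), Kitl (9.66), Grem1 (6.89), Vcam1 (2.92), Pdgfra (1.72) and Lepr (0.565). Neighbours with overlapping intervals in Ocn-EV were Prrx1 and Pdgfrb, and Pdgfrb and Tnfrsf11b. In All-EV Grem1 stood at 10.9 per length, at rank 3 of the 10, and its interval overlapped that of Cxcl12 above it. Tnfrsf11b stood at 14.3 in Prx1-EV and 2.62 in All-EV, where it ranked below Vcam1 with overlapping intervals. The 3 genes whose pair of log2 ratios to All-EV lay nearest to that of Csf1 were Pcsk7, Mfsd6 and Faxc, at distances of 0.02, 0.02 and 0.02. In all, 55 genes lay within 0.1 of it, and 3 libraries give only 2 independent ratios.

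The ligands and receptors that pair with these genes were read from a list of 19, of which 10 were at the filter. With either tagged preparation 2 of the 10 were at least 2-fold higher than with All-EV and 1 was lower, where the shares of all genes were as given above. The median log2 ratio of the 10 was 0.35 with Ocn-EV and 0.34 with Prx1-EV, against −0.02 and 0.00 over all genes. Tnfrsf11a encodes RANK, the osteoclast precursor receptor for RANKL, and stood at 849 in Ocn-EV, 958 in Prx1-EV and 412 in All-EV. Its log2 ratios to All-EV were 1.04 (0.86 to 1.23) and 1.22 (1.05 to 1.39) for Ocn-EV and Prx1-EV. Pdgfc, a PDGF ligand of the alpha receptor, stood at 738, 587 and 242 in Ocn-EV, Prx1-EV and All-EV, with log2 ratios to All-EV of 1.60 and 1.27. The lower gene was Itgb7, an integrin chain of white blood cells whose complex with the alpha4 chain can bind VCAM1, at 103 in Ocn-EV, 100.3 in Prx1-EV and 303 in All-EV.

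The other partners at the filter lay within 2-fold of All-EV. The CXCL12 receptor genes Cxcr4 and Ackr3 had log2 ratios of 0.33 and 0.82 for Ocn-EV and of 0.28 and 0.33 for Prx1-EV. Csf1r, the receptor gene for CSF1 and itself a macrophage marker, had 0.56 and 0.25. The VCAM1 receptor chains Itga4 (0.14 and 0.44) and Itgb1 (0.12 and 0.23) and the PDGF ligands Pdgfa (0.36 and 0.40) and Pdgfb (0.31 and 0.34) had smaller ratios for Ocn-EV and Prx1-EV. Ackr3 passed 2-fold for Ocn-EV with libraries set to equal totals.

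Several partners were too scarce for the filter. Kit, the receptor gene for stem cell factor, had 44 reads in Ocn-EV, 50 in Prx1-EV and 8 in All-EV, with log2 ratios to All-EV of 2.21 (1.23 to 3.63) and 2.15 (1.18 to 3.56). The BMP ligand gene Bmp4, whose protein gremlin binds, had 34, 29 and 5 reads in Ocn-EV, Prx1-EV and All-EV. Bmp2 had 12, 17 and 2 reads, and Bmp7 had 2, 3 and 5. Tnfsf11, the RANKL gene, had 4 reads in Ocn-EV, 3 in Prx1-EV and 0 in All-EV, too few for a ratio to osteoprotegerin. Tnfsf10, the gene of TRAIL, another osteoprotegerin ligand, had 25 reads in Ocn-EV, 10 in Prx1-EV and 0 in All-EV. The lower limits of its log2 intervals to All-EV were 2.52 for Ocn-EV and 0.79 for Prx1-EV. Pdgfd, a PDGF ligand of the beta receptor, had 47, 22 and 18 reads in Ocn-EV, Prx1-EV and All-EV. Il34, a second ligand of the CSF1 receptor, had 18, 22 and 22 reads, and Lep, the leptin gene, had none in any library.

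**Figure D5:**
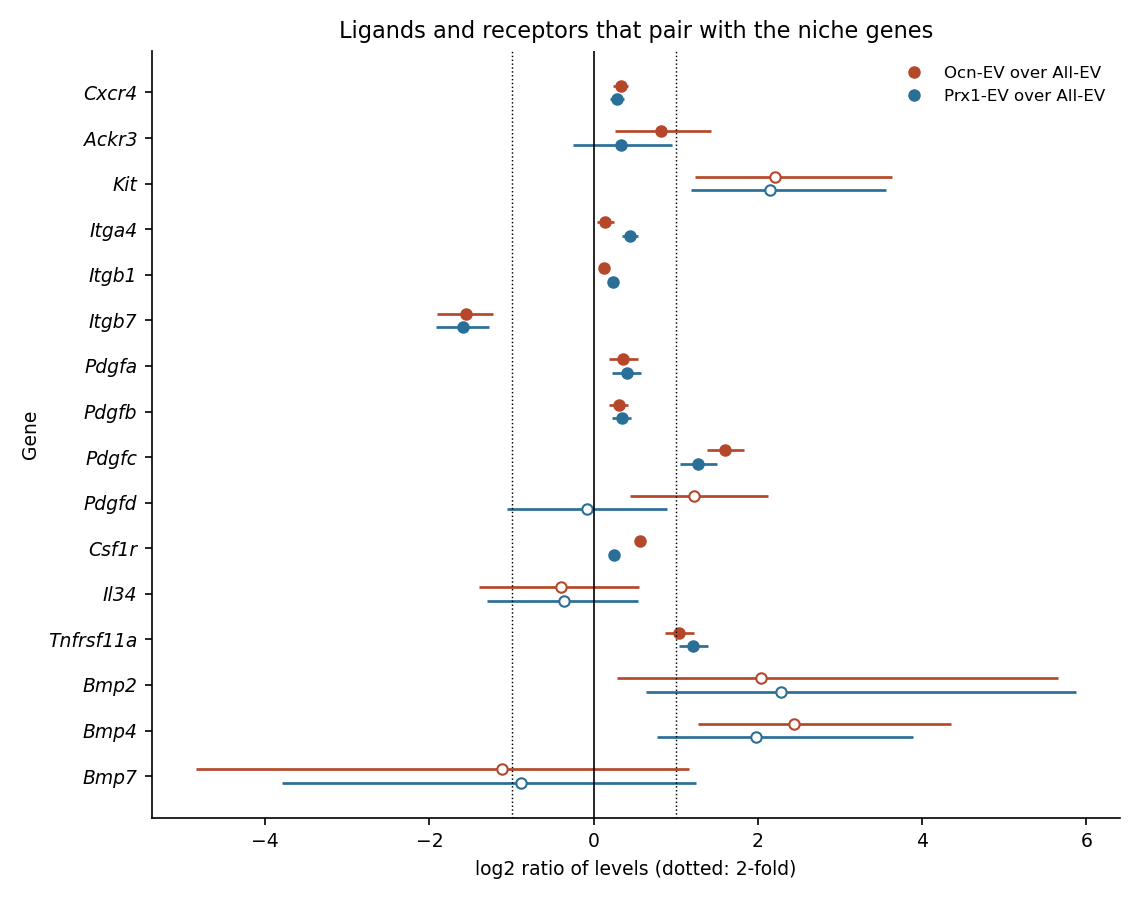
Log2 ratios to All-EV (points) with 95% counting intervals (lines) for 16 of the 19 ligands and receptors that pair with the niche genes, for Ocn-EV and Prx1-EV; open points are genes under the filter, dotted lines mark 2-fold, and Tnfsf11, Tnfsf10 and Lep, with no read in All-EV, are left out. Itgb7 is the gene at the filter that lies below −1, and Pdgfc and Tnfrsf11a lie above 1.

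Of 10 other BMP antagonists, 5 were at the filter, and the shares of all genes 2-fold higher and lower were 6.27% and 4.20% for Ocn-EV and 5.12% and 3.66% for Prx1-EV. With Ocn-EV, 2 of the 5, Fstl3 and Nbl1, were at least 2-fold higher than with All-EV, with 0 lower. With Prx1-EV 0 of the 5 were 2-fold apart, and after scaling to equal totals Fstl3 passed 2-fold. Fstl3, an antagonist of activin-type ligands, stood at 121 in Ocn-EV, 96.0 in Prx1-EV and 55.5 in All-EV, and Nbl1 at 183, 119 and 81.5. Bambi and Twsg1 lay within 2-fold of All-EV. Under the filter, Fst, the gene of follistatin, had 57 reads in Ocn-EV, 35 in Prx1-EV and 7 in All-EV. Nog, the gene of noggin, had 10, 12 and 0 reads, with lower limits of its log2 intervals to All-EV at 1.04 and 1.10 for Ocn-EV and Prx1-EV. Chrd, the gene of chordin, had 1, 8 and 7 reads, and its intervals held 0 in both comparisons.

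Among 11 mesenchymal progenitor surface genes, 10 were at the filter, and Cspg4 and Mcam, which also stand in the mural marker list, had the highest ratios to All-EV with both preparations. With Ocn-EV, 3 of the 10 (Cspg4, Mcam and Eng) were at least 2-fold higher than with All-EV and 1, Cd200, was lower, against 6.27% and 4.20% of all genes. With Prx1-EV, 2 (Cspg4 and Mcam) were higher and Cd200 was lower, against 5.12% and 3.66%. The medians were 0.37 and 0.29. Cspg4, the proteoglycan NG2 of pericytes, stood at 243 in Ocn-EV, 203 in Prx1-EV and 63.4 in All-EV (log2 1.92 and 1.67). Mcam, the adhesion molecule CD146, stood at 387, 431 and 162 (1.25 and 1.41), and Eng, the TGF-beta co-receptor endoglin, at 690, 547 and 317 (1.12 and 0.79). Cd200, an immune-regulatory surface glycoprotein, stood at 271, 247 and 661 (−1.28 and −1.42).

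The mesenchymal transcription factors of the list of 15 were mostly scarce, with Zeb1, Zeb2 and Runx2 alone at the filter. For these 3, 0 were 2-fold apart in either comparison with All-EV. Of all genes, 6.27% were higher and 4.20% lower with Ocn-EV, and 5.12% and 3.66% with Prx1-EV. The medians of the 3 were 0.25 for Ocn-EV and 0.09 for Prx1-EV. Prrx2, the paralogue of Prrx1, had 66 reads in Ocn-EV, 47 in Prx1-EV and 19 in All-EV (log2 1.62, 0.91 to 2.49, and 0.90, 0.13 to 1.78). Osr1, a zinc finger factor of limb mesenchyme, had 63, 73 and 10 reads. Sox9, the cartilage factor, went the other way with 24, 32 and 42 reads (log2 −0.91, −1.72 to −0.18, and −0.75, −1.48 to −0.07). Msx1 had 4, 2 and 8 reads, and Twist1 had 34, 58 and 30 with intervals that held 0 in both comparisons. Of 15 other niche genes, 6 were at the filter, and 0 of these were 2-fold lower, against the same shares of all genes. Ebf1 alone was at least 2-fold higher, with both preparations (78.7, 88.1 and 32.8, log2 1.24 and 1.40). Ebf1 encodes a transcription factor of CXCL12-abundant stromal cells and also of B cells. The medians of the 6 were 0.30 and 0.35. Nes, the intermediate filament gene of perivascular stroma, stood at 2038, 2036 and 1111 (log2 0.87 in each) and passed 2-fold with libraries set to equal totals.

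Markers of cells that can express these genes were counted the same way, and 6.27% (Ocn-EV) and 5.12% (Prx1-EV) of all genes were 2-fold higher than with All-EV, and 4.20% and 3.66% lower. With Ocn-EV, 6 of 7 stromal fibroblast markers at the filter passed 2-fold above All-EV and 1 was lower, and with Prx1-EV 5 were higher and 1 lower. Summed over the whole list of 9, levels were 119894 in Ocn-EV, 85327 in Prx1-EV and 31937 in All-EV. All 8 mural and smooth muscle markers at the filter were 2-fold higher with Ocn-EV and 7 of 8 with Prx1-EV, with summed levels of 27417, 26339 and 10079 and the pericyte gene Rgs5 at 10, 3 and 4 reads. Of 14 macrophage markers, 3 were higher and 2 lower with Ocn-EV, and 1 higher and 2 lower with Prx1-EV, with summed levels of 147775, 129379 and 240980, of which Lyz2 alone held 51741, 40548 and 140306. Of 6 endothelial markers at the filter, 0 were higher and 1, Esam, was lower with either preparation, with summed levels of 2010, 2285 and 2530. Of 4 adipocyte markers at the filter 0 were 2-fold apart, and Adipoq had no read. The neutrophil, B cell and T cell lists had 1 gene each at the filter (Csf3r, Ebf1 and Cd4), 2-fold higher with both preparations. Under the filter the neutrophil genes S100a8 (7, 3 and 36 reads) and S100a9 (0, 0 and 6) were lower in Ocn-EV and Prx1-EV than in All-EV. The T cell receptor gene Trac (5, 2 and 14 reads) was lower too. Other genes of these lists did not follow. For Camp of the neutrophil list (7, 5 and 9 reads) and Lck of the T cell list (18, 19 and 9) the intervals held 0. Cd79b of the B cell list was higher with both preparations, at 26, 28 and 4 reads. Both platelet markers at the filter (Pf4 and Ppbp) were lower, and no erythroid marker reached the filter. The part of these cell types in the niche gene differences was not tested. Per read of Col1a1, the type I collagen gene, Prrx1 had 0.0159 reads in Ocn-EV, 0.0172 in Prx1-EV and 0.0386 in All-EV. Pdgfrb had 0.0120, 0.0125 and 0.0164 reads per read of Col1a1. The Prrx1 ratios of both tagged libraries lay below that of All-EV beyond their counting intervals, while for Pdgfrb the Prx1-EV and All-EV intervals overlapped.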

How the data were processed

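Messenger RNA of 3 cultures, 1 per vesicle preparation, was sequenced from 100 ng of RNA as 150-base read pairs, per the labels' protocols. The deposited signal values are gene counts that the authors divided by 1 size factor per library. The submitters' processing notes name DESeq2 2.11.40.8 (a number in the form of a Galaxy wrapper version), featureCounts 2.0.3, HISAT2 2.2.1, Trimmomatic 0.38.1, FastQC 0.74 and mm10, without settings. Within each library 100% of values were whole multiples of 1 read (tolerance 1e-06), so reads were recovered by division. Symbols came from RefSeq GRCm38.p6 for 25275 of 27179 identifiers, and lengths from GENCODE vM21.

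No test between conditions is possible with 1 library per group. Log2 ratios used a pseudocount of 1. The 11067 genes whose mean level reached 50 formed the background, and 2-fold was the call. Intervals are 95% exact conditional binomial or Clopper-Pearson (scipy 1.17.1) and cover counting error only. They treat reads as independent. Reads that carry no molecular identifier are not independent molecules, so the intervals can be too narrow even for counting error. An exact binomial test on reads, adjusted by Benjamini-Hochberg at 0.05, sets library against library and not condition against condition. It called 7177, 7119 and 2872 genes for Ocn-EV over All-EV, Prx1-EV over All-EV and Ocn-EV over Prx1-EV. The calculations were tested on simulated data. From the 5 pathway lists, genes at the filter were named when 2-fold apart in a comparison with All-EV, and partners of the 10 genes always. Cell type marker lists were counted. Other genes of the pathway lists given with values, and the single cell type markers, were chosen after their values were seen. The 10 genes and the lists were chosen with earlier results of these data known. The values of 1 listed gene and the medians of its list are not reported here.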

Additional observations from a re-analysis of the deposited data

How the results depend on the processing

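Directions of the 10 genes in the 3 comparisons were kept under other scalings, pseudocounts of 0.5 and 5 and removal of a length and GC trend, except that Lepr for Prx1-EV over All-EV changed sign with equal totals (0.08). Of 150 such values, 142 stayed within the counting interval of the deposited value and 8 moved outside it, all of Prrx1, Cxcl12 and Csf1. With libraries set to equal totals, 0 of the 8 genes were 2-fold lower with Ocn-EV than with All-EV, against 2.241% of all genes. With Prx1-EV, 0 were lower and 4 higher, against 2.096% and 8.205% of all genes. Removal of the length and GC trend left 0 of the 8 lower with Prx1-EV, against 3.16% of all genes. It left 3 higher with Ocn-EV, without Cxcl12, against 5.89% of all genes. For Prx1-EV over All-EV, 5 of the 8 genes were higher at 1.5-fold, where 12.7% of all genes were. By the exact binomial test on reads 5 were higher, where 31.7% were. A stricter filter on mean level kept 6 of the 10 genes, and 1 of these 6 was 2-fold higher. Of all genes at that stricter filter, 7.08% were 2-fold apart in either direction. For Ocn-EV over Prx1-EV, 4 of the 8 were higher by the exact binomial test on reads, where 11.2% of all genes were. A filter of 10 or none kept all 10 genes, and 1 (Pdgfra) was 2-fold higher. Of all genes, 2.06% of 13611 were 2-fold higher with the filter of 10, and 1698 of 27179 with none. With no filter 17.7%, 14.9% and 9.82% of genes were 2-fold apart in the 3 comparisons. With exon unions as lengths, 5 of 10 genes kept their rank by level per length. No paired analysis was possible because each group has 1 library. Leaving out a replicate was likewise impossible. Depth limits Lepr, Pdgfra and the partners with few reads.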

Other observations

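Some stromal genes shared the direction of Grem1. They were chosen after their values were seen, and most stromal fibroblast markers at the filter went the other way. Of those 7 markers, 6 were 2-fold higher with Ocn-EV than with All-EV and 5 with Prx1-EV, with 1 lower in each comparison. Of 10 mesenchymal progenitor surface genes at the filter, 3 were higher with Ocn-EV and 2 with Prx1-EV, again with 1 lower. Pdpn, the gene of the stromal membrane glycoprotein podoplanin, stood at 507 in Ocn-EV, 517 in Prx1-EV and 1865 in All-EV (log2 −1.88 and −1.85). Dcn, the collagen-binding proteoglycan decorin, had 3, 3 and 23 reads. The Notch ligand gene Jag1 stood at 757, 740 and 1434 (log2 −0.92 and −0.95), and Nt5e, the ectoenzyme CD73 used as a stromal progenitor marker, at 118, 124 and 225 (log2 −0.93 and −0.86). Il7, the lymphocyte growth factor gene of marrow stroma, had 1 read in Ocn-EV, 3 in Prx1-EV and 12 in All-EV.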
